A study of Mus musculus with 2 samples.

Results

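The transcription factors that set the lineages of helper T cells were examined in regulatory T cells (Tregs) of BLM-treated mice: Tbx21, Eomes, Bcl6, Ascl2, Ahr, Zbtb7b and Zeb2. These 7 genes were taken by symbol from the 24346 gene symbols that both FPKM lists hold, and all 7 were found in both. Bulk RNA-seq had been made from GFP+CD4+ cells of FDG mice, whose genotype is Foxp3-DTR-GFP, so that GFP is made from the endogenous Foxp3 locus. The mice were 10 to 16 weeks old and were given 50 μg of bleomycin (BLM), a drug that injures the lung and leads to fibrosis, into the trachea. On day 15 the cells were sorted from spleen and from lung, and the sorted cells of 3 mice made up 1 library for each tissue. Both libraries thus came from treated mice carrying the reporter allele, and no library of untreated mice was analysed here.

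Naive CD4+ T cells take on different helper fates, and each fate is tied to a few transcription factors. T-bet (encoded by Tbx21) drives the Th1 fate, Bcl6 and Ascl2 the follicular helper fate, and Eomes, a T-box relative of T-bet, is best known from cytotoxic T cells and NK cells. ThPOK (encoded by Zbtb7b) holds cells in the CD4 lineage, Ahr is a receptor for small aromatic molecules, and Zeb2 is a repressor that acts with T-bet in terminally differentiated effector cells. Tregs can take up the same factors beside Foxp3, for instance T-bet where Th1 responses are controlled and Bcl6 in follicular regulatory cells.

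Each tissue had 1 library, so no difference has a replicate check and no test between the tissues was made. Levels are in FPKM, fragments scaled to the exon length of the gene and to a library size, so that genes can be compared within a library. How the library size was set is not given in the sources used here. Reads behind each FPKM were estimated from the transcript length and the value of 1 read, which for an effective length of 1 kb was 0.0964 FPKM in the splenic library and 0.0849 FPKM in the lung library. The estimated reads summed to 9647310 in spleen and 12631700 in lung. All intervals are 95% intervals, exact Poisson for a level and exact binomial for a ratio, and cover counting error only, since PCR copies of a molecule are counted as separate reads. Ratios were taken after values under 0.1 FPKM had been set to 0.1, and a gene that reached 1 FPKM in either library was read as different when the ratio exceeded 2-fold.

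In the lung library 3 of the 7 factors, Bcl6, Eomes and Ascl2, were more than 2-fold lower than in the splenic library, 1 factor, Zeb2, was more than 2-fold higher, and Tbx21, Ahr and Zbtb7b lay within 2-fold. All 7 had passed the minimum of 1 FPKM, of which Zeb2 passed through its lung value only and Eomes and Ascl2 through their splenic values only. Among all 12094 genes at that level, 15.5% were more than 2-fold lower in lung and 17.8% more than 2-fold higher. Among the 7003 genes at 1 to 20 FPKM, a range set after the members' levels were known and holding all of them, 21.8% were lower and 22.3% higher. A 2-fold difference between these libraries was therefore frequent at the level of these factors. The median log2 ratio was -0.97 over the 7 factors and 0.03 over all genes tested. At 20-fold, the threshold that the study applied to genes higher in lung, 0 of the 7 factors were higher and 0 were lower, against 3.27% and 2.35% of all genes. The floor of 0.1 FPKM limits Eomes to 16.8-fold and Ascl2 to 17.2-fold lower. Neither could pass 20-fold at any lung value, so their absence from that count is not a result.

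**Figure D1:**
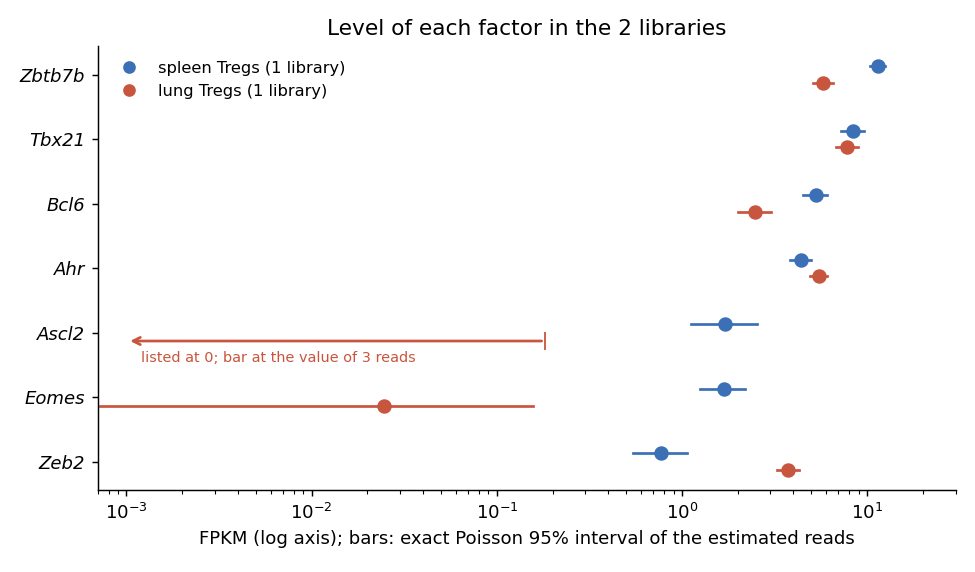
FPKM of the 7 factors on a log axis in the splenic (blue) and lung (red) library, with 95% counting intervals of the estimated reads. Tbx21 lay at 8.35 and 7.83 FPKM and its intervals overlap, while the lung interval of Zeb2 lies wholly to the right of its splenic interval. Eomes and Ascl2 leave the measured range in lung, where the arrow of Ascl2 starts at the value of 3 reads.

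All 7 factors were weakly to moderately expressed. In spleen their order was Zbtb7b, Tbx21, Bcl6, Ahr, Ascl2, Eomes and Zeb2, from 11.4 to 0.766 FPKM. Bcl6 and Ahr did not differ beyond counting error (ratio 1.20, interval 0.984 to 1.46), nor did Ascl2 and Eomes (1.02, interval 0.615 to 1.70). In lung the order was Tbx21, Zbtb7b, Ahr, Zeb2, Bcl6, Eomes and Ascl2, from 7.83 FPKM to a listed 0. There Zbtb7b and Ahr did not differ beyond counting error (1.06, interval 0.900 to 1.26), and Eomes and Ascl2, at about 1 and 0 reads, could not be ordered. Zeb2 thus stood last in spleen and above Bcl6 in lung, and Tbx21 and Zbtb7b held the top places in both. Zbtb7b, the highest in spleen, ranked 6143 among all symbols there and 7900 in lung.

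Markers of the sorted cells and of other cells were read in the same libraries. Foxp3, which defines Tregs, was at 18.7 FPKM in spleen and at 41.8 in lung, and the 11 T cell markers all lay within 2-fold, with a median log2 ratio of -0.13. All 12 macrophage markers listed were higher in lung, 9 of them more than 2-fold, and their summed level was 663 FPKM in spleen and 26118 in lung, most of it Lyz2. All 7 B cell markers were lower in lung, with sums of 254 and 129.99 FPKM. Both CD8 genes were higher, Cd8a at 4.13 and 12.2 FPKM and Cd8b1 at 19.9 and 74.8. Treg markers did not share a direction, with 2 more than 2-fold higher in lung and 1 lower among 8, and 1 higher and 4 lower after rescaling to TPM. Lung epithelial markers summed to 10.5 and 3120 FPKM, of which Scgb1a1 made up 3021 in lung, while Epcam was lower there (8.75 and 1.79). Dendritic cell markers summed to 13.3 and 55.2 FPKM, while Flt3, Siglech and Clec9a were lower in lung. In bulk RNA, fewer cells of a type and less RNA in each cell cannot be told apart.

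**Figure D2:**
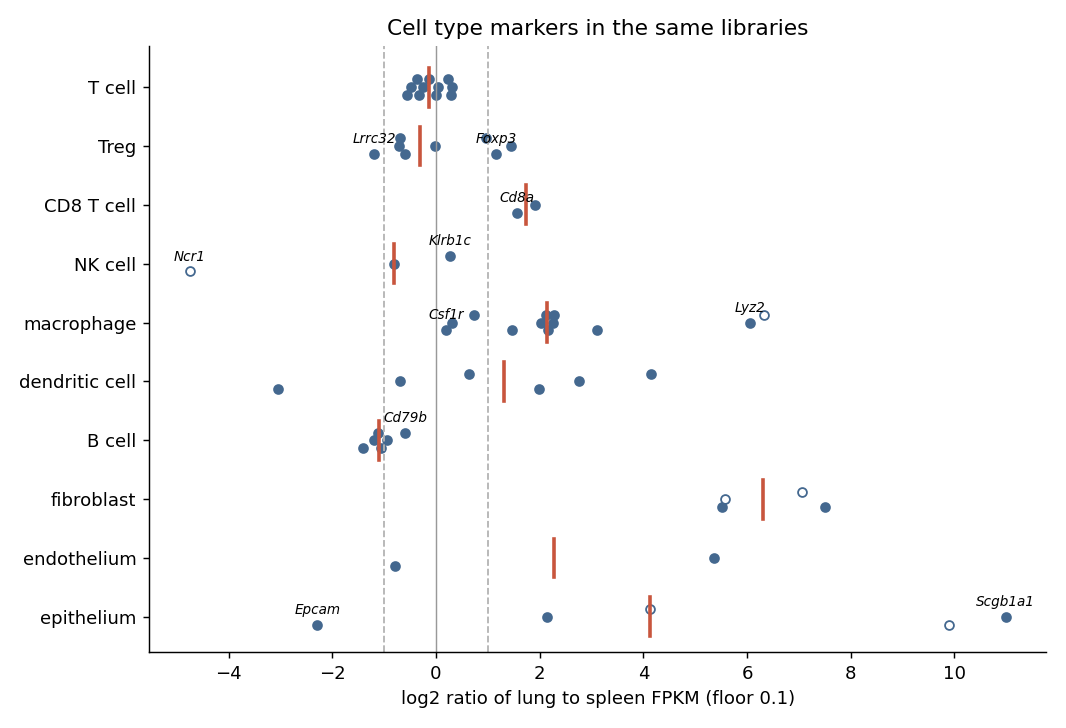
Each point is a marker gene that reached 1 FPKM in either library, placed by its log2 ratio of lung to spleen, with red bars for list medians, dashed lines at 2-fold and open points for genes with a value under 0.1 FPKM in one library. T cell markers centre near -0.13, macrophage markers are all to the right with a median of 2.14, and B cell markers are all to the left.

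Tbx21 and Eomes are the T-box factors of the list. Tbx21, which lies on chromosome 11 from 97098071 to 97115331 (minus strand, GRCm38, the assembly also called mm10, as for all positions here), was at 8.35 FPKM in spleen (interval 7.21 to 9.58) and 7.83 in lung (6.80 to 8.96), about 197 and 210 reads. The ratio of lung to spleen was 0.937 with an interval of 0.769 to 1.15, which includes 1. The sign of this small difference depended on the scaling, since it was positive (log2 0.04) after the libraries had been set to equal T cell markers. Beside Gata3, the factor of the Th2 fate, at 69.1 and 77.3 FPKM, Tbx21 amounted to 12.1% of its level in spleen and 10.1% in lung. The comparison is made within each library, so that no scaling between the libraries can alter it.

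Eomes, on the plus strand of chromosome 9 from 118478212 to 118486132, was at 1.68 FPKM in spleen (interval 1.246 to 2.19) and 0.0246 in lung (0.00072 to 0.157). About 52 reads stood against about 1. The splenic level was 68.3 times the lung level, with a counting interval of 10.1 to 2376, so the size is poorly bounded while its lower end is not near 1. Because the lung value lies under 0.1 FPKM, the floored ratio was 16.8-fold and under the 20-fold threshold. Near loss at this level was not rare. Among 1290 genes at 1 to 3 FPKM in spleen with transcripts of at least 1500 nt, 14.7% had 1.5 reads or fewer in lung, and 10.4% of 1370 such genes at that level in lung had 1.5 reads or fewer in spleen.

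NK cells carry both T-box factors, and their 6 markers were low in both libraries, with summed levels of 10.1 FPKM in spleen and 7.03 in lung. Ncr1, which encodes the receptor NKp46, was at 2.69 FPKM in spleen and listed at 0 in lung, 13.2-fold lower when 3 reads are credited to lung. Klri2 was at 0.286 FPKM in spleen and listed at 0 in lung, Klra8 was at or near 0 in both, Klra4 was at 0.275 and 0.225, Klre1 was at 2.33 and 1.33 FPKM, and Klrb1c was at 4.54 and 5.48. By direction alone, 5 of the 6 markers were thus lower in lung, as Eomes was, and Klrb1c was higher. The 5 include Klra4 and Klra8, each under 3 estimated reads in both libraries, too few to show a difference. Of the 3 at 1 FPKM or more, only Ncr1 was past 2-fold, while Tbx21 lay within it. The part of NK cell RNA in the Eomes value was not tested.

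Genes of the Th1 and cytotoxic programme, many of them targets of T-bet and Eomes, stood mostly on the lung side. Of 15 such genes, 8 (53.3%) were more than 2-fold higher in lung and 0 were more than 2-fold lower, with a median log2 ratio of 1.14, which became 0.71 with 5 genes over 2-fold after rescaling to TPM. Gzmb, encoding the cytotoxic protease granzyme B, was at 7.51 FPKM in spleen and at 63.1 in lung. Cxcr6, a chemokine receptor of tissue T cells, was at 22.0 and 147, Gzmk, another granzyme gene, at 3.47 and 22.3, and Il18rap, a subunit of the IL-18 receptor, at 3.50 and 13.7. The cytokine gene Ifng, the hallmark of Th1 cells, was at 12.4 and 10.5 FPKM, and Cxcr3, a chemokine receptor gene bound by T-bet, at 82.8 and 99.2. Hopx, a cofactor with a homeodomain, had the highest lung value of the list, at 359 FPKM against 142. Ccl4 (3.12-fold), Il12rb2 (2.27-fold) and Ccl5 (2.199-fold) were also past 2-fold, while Ccl3, Nkg7, Prf1, Il18r1 and Il2rb lay within it, as Tbx21 did. The CD8 genes given above had the same direction as the list, 2.94-fold higher for Cd8a and 3.76-fold for Cd8b1, and the part of CD8 T cell RNA in these values was not tested.

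**Figure D3:**
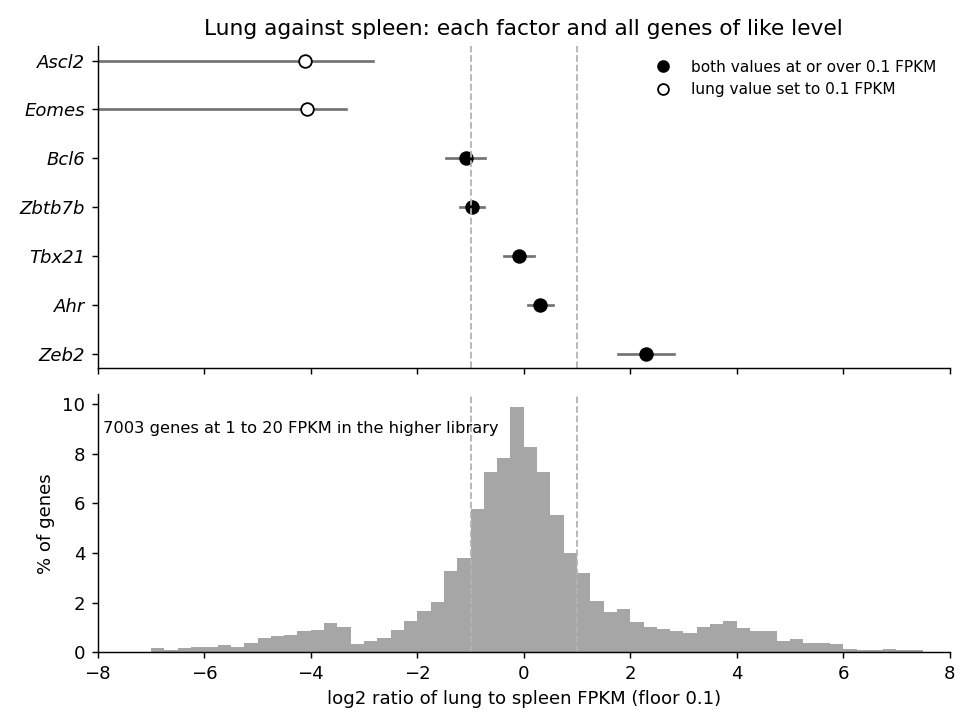
Upper panel, log2 ratio of lung to spleen for the 7 factors (points) with 95% counting intervals, which run past the left edge for Ascl2 and Eomes. Lower panel, percent of the 7003 genes at 1 to 20 FPKM in the higher library per bin of 0.25, with dashed lines at 2-fold. Bcl6 and Zbtb7b lie on either side of the 2-fold line, and 87.7% of these genes had a lower ratio than Zeb2. Eomes and Ascl2 lie in the lower tail, at places set by the floor of 0.1 FPKM in lung.

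Zeb2, on the minus strand of chromosome 2 from 44983632 to 45117395, encodes a zinc finger repressor also known from macrophages, NK cells and fibroblasts. It was at 0.766 FPKM in spleen (interval 0.545 to 1.07) and 3.74 in lung (3.24 to 4.29), about 37 and 203 reads. The ratio was 4.89 with an interval of 3.39 to 7.06, and 87.7% of the genes at 1 to 20 FPKM had a lower ratio. Its relative Zeb1 was at 8.48 FPKM in spleen and at 9.36 in lung, so that Zeb2 was 9.04% of Zeb1 in spleen and 40.0% in lung. Against Cd3e, a subunit of the T cell receptor complex at 513 and 369 FPKM, Zeb2 was 6.79 times higher in lung, and against Csf1r, the macrophage growth factor receptor, 4.27 times. Both values depend on the gene chosen, since Cd3e was itself lower in lung and Csf1r had the smallest fold (1.14) of the 12 macrophage markers. Among these markers, Mrc1 (1.23-fold) and Adgre1 (1.66-fold) changed less than Zeb2. Mertk (4.76-fold) and Marco (4.87-fold) changed about as much as Zeb2, and Cd68 (8.57-fold) changed more. The antisense gene Zeb2os overlaps exons of Zeb2 and was at 0.477 FPKM in spleen and at 0.0840 in lung, and because the library kit does not mark strand its reads cannot be fully parted from those of Zeb2. Genes on the opposite strand also overlap exons of Bcl6, Eomes and Ahr, and no values of them were used here.

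The macrophage markers, whose sums are given above, moved with Zeb2. Their folds ran widely, from 1.14 for Csf1r, 1.23 for Mrc1 and 1.66 for Adgre1 over 2.78 for C1qa and 4.76 for Mertk to 8.57 for Cd68 and 66.3 for Lyz2. Siglecf, found on alveolar macrophages, was at 0.0438 and 8.06 FPKM. Fibroblast markers also went with it, with summed levels of 0.290 FPKM in spleen and 47.2 in lung, where Col3a1, Lum and Pdgfra were listed at 0 in spleen. The part of macrophage and fibroblast RNA in the Zeb2 value was not tested.

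Of 5 genes linked to Zeb2 in terminally differentiated effector cells, Klrg1, a receptor of such cells and of tissue Tregs, was at 34.2 FPKM in spleen and at 169 in lung, and the chemokine receptor gene Cx3cr1 at 1.17 and 3.14. S1pr5, which guides effector and NK cells out of tissue, was at 0.295 FPKM in spleen and listed at 0 in lung. Gzma and Itga4 lay within 2-fold. After rescaling to TPM, 1 of the 5 was more than 2-fold higher. Among 7 partners of Zeb2, 1 was more than 2-fold higher and 2 were more than 2-fold lower. Ctbp2, a corepressor, was at 1.36 and 6.22 FPKM, while the histone deacetylase gene Hdac2 was at 79.5 and 28.9 and the TGF-β signal transducer Smad3 at 11.1 and 5.41. Smad3 was only slightly past 2-fold, and 1 partner was lower after rescaling to the T cell markers and 3 after rescaling to TPM. Hdac1 was the most abundant partner, at 180.01 and 142 FPKM.

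Bcl6 and Ascl2 belong to the follicular programme, and both were lower in the lung library. Bcl6, a repressor on the minus strand of chromosome 16 from 23965052 to 23988852, was at 5.27 FPKM in spleen (interval 4.52 to 6.09) and 2.48 in lung (2.01 to 3.03), about 181 and 97 reads. It was 2.12-fold lower in lung with a counting interval of 1.65 to 2.74, just past the 2-fold threshold, and 20.6% of the genes at 1 to 20 FPKM had a lower ratio. With the libraries set to equal T cell markers its log2 ratio was -0.95, short of 2-fold. Prdm1, which encodes Blimp-1, the factor that Bcl6 opposes, was at 5.79 and 16.03 FPKM. Bcl6 was thus 0.909 times the level of Prdm1 in spleen and 0.155 times in lung, a 5.87-fold difference in their ratio.

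Ascl2, a basic helix-loop-helix factor on the minus strand of chromosome 7 from 142966829 to 142969264, was at 1.72 FPKM in spleen (interval 1.12 to 2.55), about 25 reads, and was listed at 0 in lung. With 3 reads credited to lung, or 0.183 FPKM, the splenic value is 9.41-fold higher. The upper end of the exact interval for 0 reads was 0.224 FPKM. With the counting error of both libraries taken in, Ascl2 was at least 7.14-fold lower in lung. It was 1 of the 190 genes behind the 14.7% near loss given for Eomes above. Factors of this class bind DNA together with E proteins and are held back by Id proteins. Of the 6 such partners at 1 FPKM or more, the E protein genes Tcf12 (18.8 FPKM in spleen and 7.17 in lung) and Tcf3 (26.3 and 10.7) were more than 2-fold lower in lung, as was Id3 (152 and 66.6). Id2 (171 and 738), Id1 (2.26 and 12.4) and Tcf4 (1.89 and 7.08) were more than 2-fold higher.

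B cell markers went in the same direction as Bcl6, a factor that germinal centre B cells also express. Of the 6 at 1 FPKM or more, 4 were more than 2-fold lower in lung, with a median log2 ratio of -1.09 beside -1.08 for Bcl6, and 2 were lower after rescaling to the T cell markers and all 6 after rescaling to TPM. None of the 7 was at 0 in either library, and the part of B cell RNA in the Bcl6 value was not tested.

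Other genes of the follicular programme did not share one direction. Of 10, 2 were more than 2-fold higher in lung, 1 was lower and 7 lay within 2-fold, with a median log2 ratio of -0.17, and 3 were lower after rescaling to TPM. The co-inhibitory receptor gene Pdcd1 was at 73.2 FPKM in spleen and at 378 in lung, and the costimulator gene Icos at 59.2 and 248. Il21, the cytokine of follicular helper cells, was at 2.24 and 0.825. Cxcr5, the chemokine receptor that leads T cells into B cell follicles, was at 34.7 and 22.5 FPKM, a ratio within 2-fold. Of 9 genes that Bcl6 or Ascl2 is known to repress, 3 were more than 2-fold higher in lung, namely Prdm1, Id2 and Rora (5.93 and 26.5 FPKM). The remaining 6 lay within 2-fold. By direction alone, 7 of the 9 were higher in lung and 2 were lower, Klf2 (296 and 170 FPKM) and S1pr1 (244 and 172). After rescaling to TPM, 1 of the 9 was more than 2-fold lower.

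**Figure D4:**
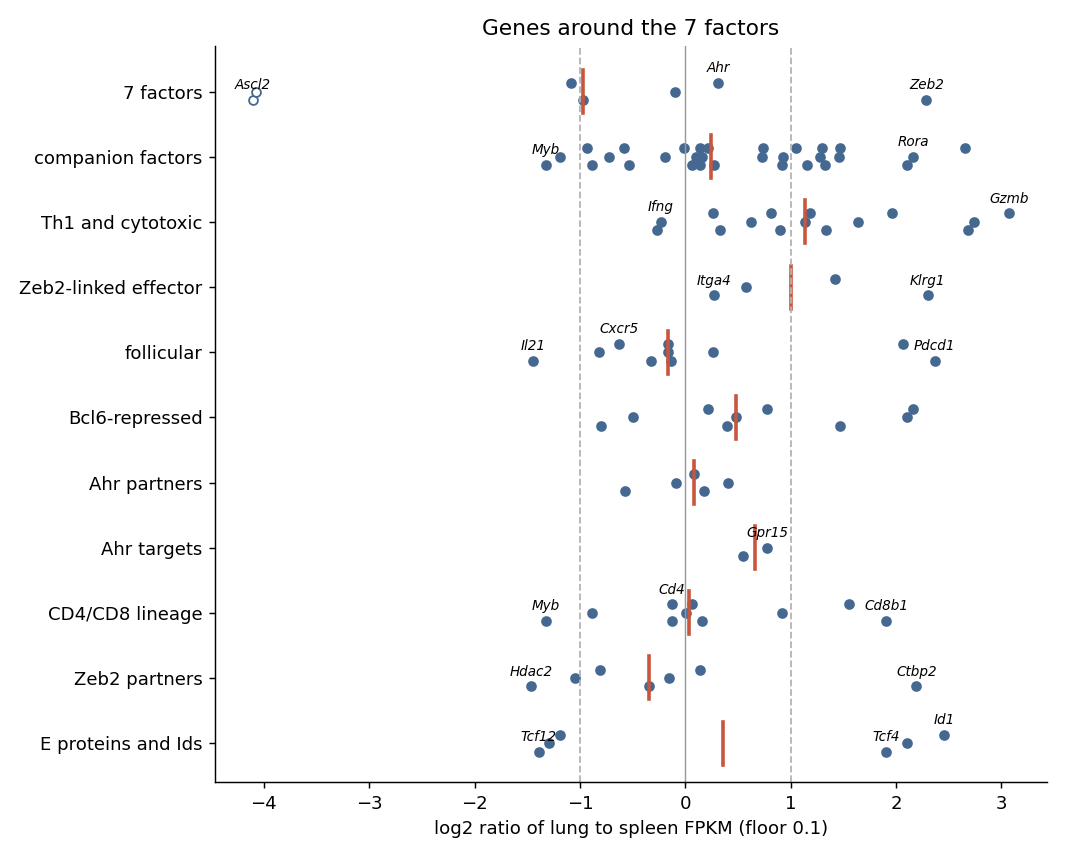
Genes that reached 1 FPKM in either library, by list, placed by their log2 ratio of lung to spleen, with red bars for list medians, dashed lines at 2-fold and open points for genes with a value under 0.1 FPKM in one library. The Th1 and cytotoxic list has its median at 1.14, the follicular list at -0.17, and the E proteins and Id genes fall into groups of 3 on either side.

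Ahr lies on the minus strand of chromosome 12 from 35497974 to 35535038. It was at 4.398 FPKM in spleen (interval 3.85 to 4.98) and 5.46 in lung (4.89 to 6.07), about 243 and 343 reads. The ratio was 1.24 with a counting interval of 1.05 to 1.47. The direction was not fixed, because rescaling to TPM, which lowered the log2 ratio by 0.43 where both values lie above the floor, gave a log2 ratio of -0.12 in place of 0.31. Its nuclear partner Arnt was at 20.6 FPKM in spleen and at 13.9 in lung, so that Ahr was 21.3% of Arnt in spleen and 39.4% in lung. The 5 partners of Ahr at 1 FPKM or more, among them Arnt and the chaperone genes Hsp90aa1, Hsp90ab1 and Ptges3, all lay within 2-fold, and 1 of them was past 2-fold lower after rescaling to TPM. Hsp90ab1 was the most abundant, at 647 and 734 FPKM.

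Most of the target genes that report active Ahr were near or at 0. Of 9, only Tiparp, encoding a poly-ADP-ribose polymerase that limits Ahr, and Gpr15, a homing receptor gene, reached 1 FPKM. Tiparp was at 9.66 FPKM in spleen and at 14.1 in lung and Gpr15 at 12.8 and 22.0, both within 2-fold. Ahrr, the repressor of Ahr, was at 0.171 and 0.0188 FPKM, and the cytochrome gene Cyp1a1 at 0.120 in spleen and 0 in lung. Cyp1b1 was at 0.0196 and 0, Nqo1 at 0.933 and 0, and Cyp1a2 and Il22 were listed at 0 in both.

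To set these levels beside the regulatory sequence, the 250 bases before the start site were read from the RefSeq promoter table (GRCm38.p6) for 1 target that was expressed and for 2 that were near 0. They are Tiparp at chr3:65528197-65528446 on the plus strand, Ahrr at chr13:74292332-74292581 on the minus strand and Cyp1a1 at chr9:57697363-57697612 on the plus strand. Capitals mark the core of the site of Ahr with Arnt, GCGTG, on either strand, and each sequence runs 5′ to 3′ on the strand of the gene.
Tiparp: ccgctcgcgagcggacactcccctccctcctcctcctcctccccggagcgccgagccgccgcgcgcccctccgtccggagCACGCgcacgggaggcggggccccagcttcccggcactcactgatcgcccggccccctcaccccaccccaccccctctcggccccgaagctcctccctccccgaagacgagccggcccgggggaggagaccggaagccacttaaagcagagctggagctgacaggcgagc
Ahrr: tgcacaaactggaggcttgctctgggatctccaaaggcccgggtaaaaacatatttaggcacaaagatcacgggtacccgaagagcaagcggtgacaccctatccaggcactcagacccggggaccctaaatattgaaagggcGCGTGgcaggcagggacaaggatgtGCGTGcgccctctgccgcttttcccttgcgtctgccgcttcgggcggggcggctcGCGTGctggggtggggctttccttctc
Cyp1a1: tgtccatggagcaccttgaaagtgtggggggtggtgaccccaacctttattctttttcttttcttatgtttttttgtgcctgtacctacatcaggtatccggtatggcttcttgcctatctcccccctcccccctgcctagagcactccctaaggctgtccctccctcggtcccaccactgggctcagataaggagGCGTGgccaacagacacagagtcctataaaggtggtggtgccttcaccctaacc

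The core was found 1 time in Tiparp, 3 times in Ahrr and 1 time in Cyp1a1. It occurs in 28.2% of all 32851 windows of this length in the table, and in 4 of the 8 target genes that the table holds. Cores before the start site were thus present both in Tiparp, at 14.1 FPKM in lung, and in Ahrr and Cyp1a1, at 0.0188 and 0, while the window of Gpr15, at 22.0 FPKM, held none. Among the factors themselves, the window of Ascl2 held 3 cores, and 2 of the 4 windows of Zeb2, which overlap, held the same 1 core. Ahr is not in the table. A T-box element, GGTGTGA, was found in none of the windows of the members. It was found in 2 of the 15 windows of the 12 Th1 and cytotoxic genes in the table, those of Gzmk and Nkg7, against 3.33% of all windows. The E-box CACCTG, which Zeb factors bind, was found in 3 of the 11 windows of the members, 1 each of Tbx21, Zbtb7b and Ascl2, against 17.2% of all windows. All motifs were sought on both strands, and the last 2 can share bases.

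Zbtb7b, on the minus strand of chromosome 3 from 89377644 to 89394776, encodes ThPOK. It was at 11.4 FPKM in spleen (interval 10.4 to 12.5) and 5.81 in lung (5.11 to 6.57), about 431 and 249 reads. The difference was 1.97-fold with a counting interval of 1.68 to 2.31, just short of 2-fold, and 22.5% of the genes at 1 to 20 FPKM had a lower ratio. After rescaling to TPM it passed, with a log2 ratio of -1.41. The antisense gene Gm15417 overlaps its exons and went the other way, at 4.36 FPKM in spleen and 11.8 in lung, and without strand its reads cannot be fully parted from those of Zbtb7b. Zbtb7a, a close relative, was at 14.7 and 7.98 FPKM, so that Zbtb7b was 77.6% of Zbtb7a in spleen and 72.8% in lung.

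Around Zbtb7b, genes of the choice between the CD4 and CD8 lineages were read. Runx3, which acts against ThPOK in that choice, was 1.89-fold higher in lung, within 2-fold. Zbtb7b was 1.08 times the level of Runx3 in spleen and 0.290 times in lung, a 3.71-fold difference in their ratio. Cd4, which ThPOK maintains, was at 195 and 179 FPKM. Cd8a and Cd8b1, which ThPOK holds down, were 2.94-fold and 3.76-fold higher in lung, and whether RNA of CD8 T cells or of other CD8α+ cells has a part in these values was not tested. Of the 10 genes of this list, 2 were more than 2-fold higher, 1, the proto-oncogene Myb (8.29 and 3.31 FPKM), was more than 2-fold lower and 7 lay within 2-fold, and 2 were lower after rescaling to TPM.

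The 31 companion transcription factors of helper and regulatory lineages gave the setting for the 7 members. Of the 30 at 1 FPKM or more, 10 (33.3%) were more than 2-fold higher in lung and 2 (6.67%), Myb (8.29 and 3.31 FPKM) and Id3 (152 and 66.6), more than 2-fold lower, with a median log2 ratio of 0.25. The counts became 5 higher and 6 lower and the median -0.19 after rescaling to TPM, so the balance of this list depended on the scaling. Among the higher were Rora (4.48-fold) and Id2 (4.31-fold), which encode factors of innate-like and tissue lymphocytes, and Prdm1 (2.77-fold), which encodes a factor of effector cells. Most companions were more abundant in lung than every member. Id2 reached 738 FPKM and Batf 244 in lung, while the highest member there was Tbx21 at 7.83.

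To find which companion each member most resembled, the distance between both log2 levels was taken over the 2 libraries. Tbx21 lay nearest to Zeb1 (distance 0.26), Zbtb7b to Zbtb7a (0.59), and Bcl6 and Ahr both to Myb (0.77 and 1.17). Zeb2 lay nearest to Hlx (1.75), and Eomes and Ascl2 to Zbtb16 (2.33 and 2.36), which was at 0.334 FPKM in spleen and listed at 0 in lung. The last 3 distances are large, so no companion was close to these members in the levels of both libraries together. Zbtb16 shared the near 0 lung value of Eomes and Ascl2, all set to the floor, and differed from them in its splenic level. By ratio alone, Rora (4.48-fold) and Id2 (4.31-fold) were near Zeb2 (4.89-fold). With 2 libraries this likeness is only a description of their levels.

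**Figure D5:**
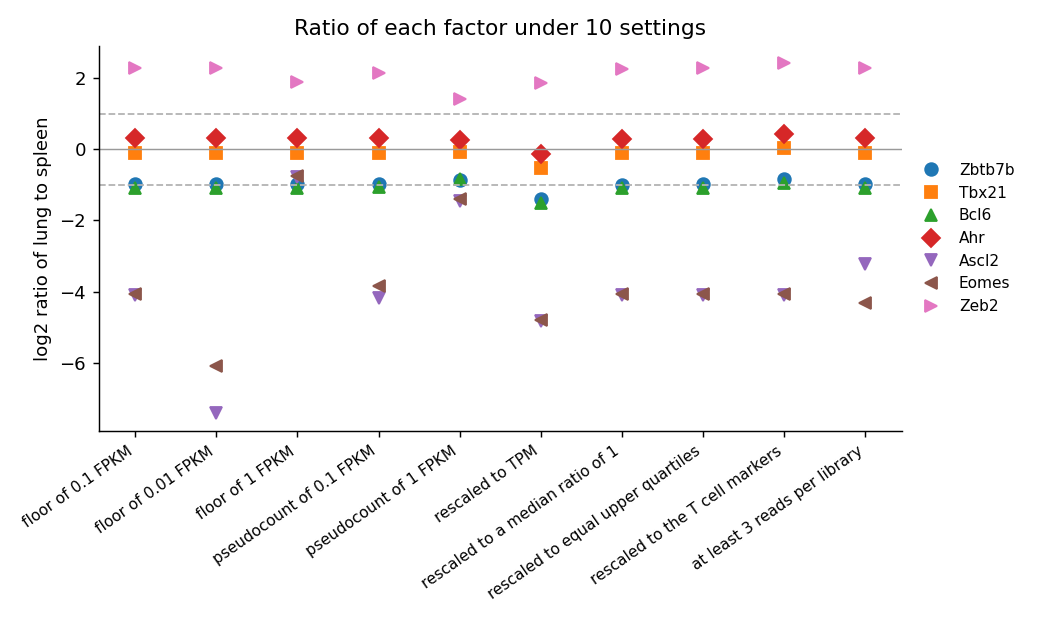
Log2 ratio of lung to spleen of each factor under 10 ways of treating low values and of scaling the libraries, with dashed lines at 2-fold. Zeb2 stays above the upper line throughout, Bcl6 and Zbtb7b move across the lower line, and the size for Eomes and Ascl2 follows the floor.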

How the data were processed

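The members and the gene lists were chosen with earlier results of these data known. Libraries were assigned to tissues from their labels. Per the labels and the study's methods, RNA was converted with SMART-Seq HT and Nextera XT, sequenced as 75-base single-end reads and mapped to mm10 by the authors with TopHat2 2.1.1, Bowtie2 2.2.8 and SAMtools 0.1.18. The deposited FPKM were computed by the authors with Cuffdiff 2.2.1. The annotation, options and library scaling are not given in the sources used here.

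Ratios of lung to spleen were taken after a floor of 0.1 FPKM. The 12094 genes that reached 1 FPKM in either library were compared with a threshold of 2-fold. Reads were estimated from GENCODE M21 transcripts tied to RefSeq (a length for 23016 symbols, 94.5%), with fragments of mean 200 and SD 80. Genes with several lengths, Eomes and Zeb2 among them, were given the median, so their reads are approximate. Among genes with transcripts of at least 1500 nt and 1 to 10 reads, 74.6% in spleen and 76.9% in lung came within 0.1 of a whole number. The FPKM summed to 599633 and 808853. Tests on data simulated from the splenic levels recovered the value of 1 read in both libraries. Among 14069 genes, a 4-fold difference was called in 100 of 100 raised and 100 of 100 lowered, beside 4 of 8590 unchanged genes. These were drawn from genes with at least 20 reads and transcripts of at least 1500 nt. The simulation held counting noise only and used the same transcript lengths as the estimate. It therefore checked the computation and cannot show how much real libraries differ.

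All members, every list gene over 2-fold (at most 4 in each direction), the most abundant gene of a list and defining targets were named, and a few others were named after their values were seen, as were the pairs whose ratio within a library is given. Some genes of the lists are counted but not reported by name here. Computation used Python 3.11.15 with pandas 2.3.3 and numpy 2.4.6, intervals scipy 1.17.1, and figures matplotlib 3.10.9.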

Additional observations from a re-analysis of the deposited data

How the results depend on the processing

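The settings were other floors and pseudocounts, 4 scalings between the libraries, at least 3 reads per library, other minimum levels and other folds, and the range of 1 to 20 FPKM was added after the values had been seen. Zeb2 was the 1 factor more than 2-fold higher under every setting except a minimum of 5 FPKM, which removes it and leaves 0, and the 20-fold threshold, which leaves 0 higher and 0 lower. At 20-fold the floor alone keeps Eomes and Ascl2 from being called lower. The count of lower factors, 3 as reported, was 1 with a floor of 1 FPKM (Bcl6) and 1 with a minimum of 5 FPKM (Bcl6), which removes Eomes and Ascl2. It ranged from 2 to 4 under the others, because Bcl6 and Zbtb7b lie beside the threshold. The log2 ratio of Bcl6 ran from -1.52 to -0.85, of Zbtb7b from -1.41 to -0.85 and of Zeb2 from 1.43 to 2.42. For Eomes it ran from -6.09 to -0.75 and for Ascl2 from -7.42 to -0.78, both with the floor. For genes above the floor in both libraries, rescaling to TPM shifted log2 ratios by -0.43 and the other 3 scalings by -0.02, -0.01 and 0.13. Genes held at the floor, such as Eomes and Ascl2, shifted by other amounts. Rescaling to TPM moved the share of higher genes among all genes past 2-fold from 53.4% to 33.6%. Eomes, at about 1 read in lung, and Ascl2, at about 25 reads in spleen and 0 in lung, have wide counting intervals of the ratio. No paired analysis was possible because each tissue has 1 library.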

Other observations

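Relatives of the members by family were read as well. Among 15 other T-box genes, 3 reached 1 FPKM in either library. Mga was at 5.18 FPKM in spleen and at 5.29 in lung, Tbx6 at 2.56 and 2.31, and Tbx4, a factor of lung mesenchyme, was listed at 0 in spleen and at 1.06 FPKM in lung. Tbx21 was above each of these 3 in both libraries. The fibroblast markers, which sum to 0.290 FPKM in spleen and 47.2 in lung, had the direction of Tbx4, and their part in it was not tested.

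Among 10 other genes of the family of Bcl6 and Zbtb7b, the BTB zinc finger genes, 8 reached 1 FPKM. Zbtb25 was the most abundant in lung, at 40.4 FPKM in spleen and 54.3 in lung. Zbtb32, which is induced in activated lymphocytes, was 2.74-fold higher in lung (7.57 and 20.8 FPKM), and Zbtb20 was 2.31-fold lower (23.6 and 10.2). After rescaling to TPM, 4 of the 8 were more than 2-fold lower.

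Among 11 other bHLH-PAS genes, the family of Ahr, Hif1a was the most abundant, at 76.8 FPKM in spleen and 80.8 in lung. Epas1, which encodes its relative HIF-2α, was 7.66-fold higher in lung (0.563 and 4.31 FPKM). The clock genes Per3 and Per2 went opposite ways, Per3 from 0.483 FPKM in spleen to 2.49 in lung, and Per2 from 1.06 to a listed 0, while Clock was at 3.23 and 2.76 and Arntl at 15.8 and 20.6.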
